A study of Rattus norvegicus with 6 samples.

Results

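The AP-1 family encodes transcription factors that share a basic region, which contacts DNA, and a leucine zipper, through which 2 proteins pair. The 8 genes Fos, Fosb, Fosl1, Fosl2, Jun, Junb, Jund and Atf3 were taken by symbol from the 14405 protein-coding genes listed for tongue tissue of rats, and all 8 were listed once. The genes were chosen by family and selected on their FPKM in these same control and periodontitis libraries, whose values had already been seen, so that contrast is given for them as a description, without a test. The series sequenced RNA from dorsal tongue epithelium, described as tissue of the circumvallate papilla, a taste structure at the back of the tongue. Control tissue came from non-periodontitis rats (3 libraries) and diseased animals had chronic periodontitis (3 libraries), an inflammation that destroys the support of the teeth. The labels give no strain, age or way of inducing the disease, and say nothing on whether the libraries come from different animals, so p-values measure only how far these libraries vary, which may be technical.

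Fos proteins pair with Jun proteins, and Jun proteins can also pair with each other. Several of the genes belong to the immediate early genes, whose transcription starts soon after cells meet growth factors, cytokines, ultraviolet light, wounding or other stress. In stratified epithelium AP-1 factors are known for roles in proliferation, differentiation and repair. Handling and dissociation of tissue are also known to induce them.

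In the mean, all 8 genes were higher in periodontitis, yet in none of the 8 did the groups separate. The log2 difference was largest for Atf3 and Fosb. The ratio of mean FPKM was largest for Fosl1 (19.2), which was high in periodontitis 1 alone. A higher mean was also seen in 42.6% of all tested genes. Periodontitis 1 and 3 were above all controls for 7 of the 8 genes, as for 3.3% of all tested genes, while periodontitis 2 was within the control range for all 8. Among the controls, control 3 was the highest for 7 of the 8 genes. The values are FPKM, mapped fragments per length of transcript and size of library, with no read counts to give their depth. Each difference is the periodontitis mean less the control mean of log2(FPKM + 1), a scale on which low genes appear to change less than they do. In limma, 0 of 13154 tested genes passed an adjusted p of 0.05 (0%), and 278 had an unadjusted p under 0.05 (2.11%). Groups did not overlap in 5.56% of the tested genes, against 0 of the 8 family genes.

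**Figure D1:**
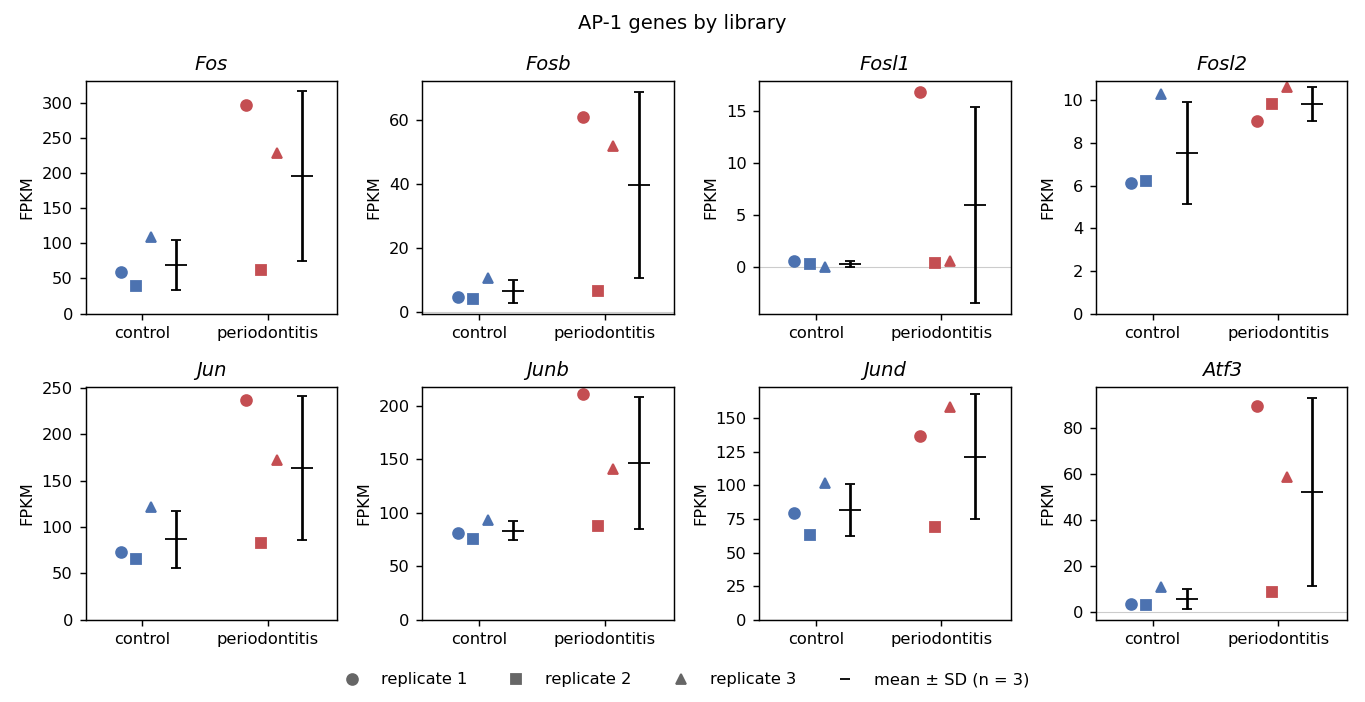
FPKM of the 8 AP-1 genes in each library (points, with shapes for the replicate number), with the group mean and SD (n = 3) beside them, each panel on its own linear axis that includes 0. Periodontitis 2 (red square) sits among the controls in every panel, and control 3 (blue triangle) is the highest control except for Fosl1.

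Fos, the founding partner of Jun and the standard marker of recent stimulation, lies on chromosome 6 (109300433 to 109303299, plus strand, in the deposited tables). It had 58.5, 39.5 and 109 FPKM in controls 1 to 3 and 296, 61.4 and 229 FPKM in periodontitis 1 to 3. Periodontitis 2 was close to control 1, and the other periodontitis libraries were above every control. The control mean was 68.9 ± 35.8 FPKM and the periodontitis mean 195 ± 121 FPKM (SD, n = 3), a log2 difference of 1.34 ± 0.61 (SE, limma). The lowest and highest controls differed 2.75-fold in Fos, so the controls varied widely among themselves.

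Fosb, a Fos relative that is also induced early, lies on chromosome 1 (80214494 to 80221710, minus strand). Controls 1 to 3 had 4.86, 4.05 and 10.8 FPKM, and periodontitis 1 to 3 had 61.1, 6.76 and 51.8 FPKM. The libraries stood in the same order as for Fos. The log2 difference was 2.06 ± 0.77 (SE, limma). Relative to Fos, Fosb amounted to 0.0830, 0.103 and 0.0992 of the Fos FPKM in controls 1 to 3. In periodontitis 1 to 3 it amounted to 0.206, 0.110 and 0.227 of it. Fosb therefore made up more of the Fos level in periodontitis 1 and 3 than in the other 4 libraries.

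Fosl1 and Fosl2, which encode Fra-1 and Fra-2, lack the strong activation region of Fos. Fosl1 is on chromosome 1 (220826560 to 220835066, plus strand). It had 0.591 and 0.342 FPKM in controls 1 and 2, was listed at 0 in control 3, and had 16.8, 0.441 and 0.651 FPKM in periodontitis 1 to 3. One library alone carried its higher mean. It did not reach 1 FPKM in 3 libraries and was the only one of the 8 genes left out of the test. Its log2 difference of 1.44 was 0.26 without periodontitis 1. Fosl2, on chromosome 6 (25598936 to 25616995, minus strand), had 6.11, 6.21 and 10.3 FPKM in controls and 9.05, 9.82 and 10.6 FPKM in periodontitis. Its periodontitis libraries were close together, and control 3 lay between them. The log2 difference of 0.38 ± 0.22 (SE, limma) was the smallest of the 8.

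Jun, the main partner of Fos, lies on chromosome 5 (114011189 to 114014277, minus strand). It had 73.4, 65.2 and 121 FPKM in controls 1 to 3 and 237, 82.4 and 173 FPKM in periodontitis 1 to 3. Its libraries stood in the Fos order, with a log2 difference of 0.84 ± 0.41 (SE, limma). Junb, which can oppose Jun at some promoters, lies on chromosome 19 (26092974 to 26094756, minus strand). Controls had 81.1, 75.7 and 92.9 FPKM and periodontitis libraries 211, 87.3 and 141 FPKM. Its controls were the closest together of the 8 genes, with an SD of 10.6% of their mean, and its log2 difference was 0.72 ± 0.31 (SE, limma). Jund, on chromosome 16 (20485029 to 20486707, minus strand), is the most steadily expressed Jun gene in many tissues. It had 79.1, 63.1 and 102 FPKM in controls and 136, 69.2 and 158 FPKM in periodontitis. Here periodontitis 3 was above periodontitis 1, unlike in Fos, Fosb, Jun, Junb and Atf3. The log2 difference was 0.51 ± 0.34 (SE, limma).

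The upstream sequences of Junb and Jund are shown because these genes share a partner role and similar control levels but put periodontitis 1 and 3 in opposite order, and that of Fosl1 because it was high in 1 library only. RefSeq windows (GRCr8, a build other than that of the tables' coordinates) were matched for 5 of the 8 genes. Fosb was searched too but is not described further, because its window overlaps the RefSeq gene span. Each sequence holds the 250 bases before the gene start, written 5′ to 3′ on the gene's strand. Capitals mark matches to TGACTCA (the AP-1 site), TGACGTCA (the cAMP response element), GCGTGGGCG (the Egr site), CCAAT and the CArG box (the serum response element), all on both strands, and TATAAA on the gene's strand.
Junb, chr19:40080876-40081125, plus strand: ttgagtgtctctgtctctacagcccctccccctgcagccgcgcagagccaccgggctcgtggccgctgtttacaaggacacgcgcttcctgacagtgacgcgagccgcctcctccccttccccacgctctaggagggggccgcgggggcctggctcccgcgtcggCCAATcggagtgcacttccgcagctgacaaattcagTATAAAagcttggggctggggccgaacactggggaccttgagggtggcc
Jund, chr16:18769772-18770021, minus strand: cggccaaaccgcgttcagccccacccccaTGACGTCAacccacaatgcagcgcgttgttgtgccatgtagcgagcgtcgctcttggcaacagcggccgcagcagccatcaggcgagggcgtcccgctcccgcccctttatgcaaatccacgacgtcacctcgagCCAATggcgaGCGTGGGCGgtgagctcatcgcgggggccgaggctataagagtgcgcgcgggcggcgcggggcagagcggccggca
Fosl1, chr1:212183635-212183884, plus strand: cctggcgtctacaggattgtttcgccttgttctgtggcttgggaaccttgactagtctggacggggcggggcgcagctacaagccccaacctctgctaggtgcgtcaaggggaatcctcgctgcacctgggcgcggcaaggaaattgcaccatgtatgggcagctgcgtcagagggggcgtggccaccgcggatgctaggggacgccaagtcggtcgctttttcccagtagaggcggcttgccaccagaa

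Junb holds CCAAT at 85 to 81 bases and TATAAA at 49 to 44 bases before its start. Jund holds CCAAT at nearly the same distance, 86 to 82 bases, and the Egr site at 76 to 68 bases and the cAMP response element at 221 to 214 bases before its start. Fosl1 and Fosl2 hold none of the 6 motifs in these windows. Of 33469 rat windows of the same length, 34% held CCAAT, 8.06% TATAAA, 0.478% the Egr site and 1.59% the cAMP response element. The AP-1 site was in 4.05% of them and the CArG box in 1.5%, and neither was in the 5 family windows searched. The windows of Junb, Jund and Fosl1 were 66%, 68.4% and 62% G and C, against a median of 51.2% over all windows. A match is a run of letters and not a measured site.

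Atf3, a stress-induced factor of the ATF branch that pairs with Jun proteins, is a repressor at many genes. It lies on chromosome 13 (109817728 to 109849632, minus strand). Controls 1 to 3 had 3.16, 2.76 and 10.7 FPKM, and periodontitis 1 to 3 had 89.4, 8.42 and 58.5 FPKM. Periodontitis 2 was below control 3, and the other periodontitis libraries were far above all controls. The means were 5.53 ± 4.45 and 52.1 ± 40.9 FPKM (SD, n = 3). The log2 difference of 2.71 ± 0.84 (SE, limma) was the largest of the 8. Without control 3 the ratio of the means was 17.6, against 9.43 with all libraries, and without periodontitis 1 it was 6.05.

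For Fos, Fosb, Jun, Junb and Atf3 the 6 libraries stood in a single order, control 2 lowest, then control 1, periodontitis 2, control 3, periodontitis 3 and periodontitis 1. Of all tested genes, 21 had this order (0.16%), these 5 included. The order was noticed after the values were seen, and the 5 genes were proposed from the same contrast. Fosl1, Fosl2 and Jund each had an order of their own.

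Since FPKM is per length, levels can be set side by side between genes. In controls the mean levels ran Jun (86.6 FPKM), Junb (83.3), Jund (81.3), Fos (68.9), Fosl2 (7.54), Fosb (6.56), Atf3 (5.53) and Fosl1 (0.311). Only the steps from Fos to Fosl2 and from Atf3 to Fosl1 were free of overlap between the control libraries. The 3 Jun genes and Fos thus formed an upper set whose neighbours did not differ beyond their spread, and Fosl2, Fosb and Atf3 a lower one. In periodontitis 1 and 3 Fos was the most abundant of the 8, while in periodontitis 2 Junb was.

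The 8 genes together summed to 307, 257 and 457 FPKM in controls 1 to 3 and to 1056, 326 and 823 FPKM in periodontitis 1 to 3. The Jun genes made up 76.1%, 79.4% and 69.2% of that sum in controls, and 55.3%, 73.4% and 57.4% in periodontitis 1 to 3. Atf3 made up 1.03%, 1.08% and 2.33% in controls and 8.46%, 2.58% and 7.11% in periodontitis. The ratio of the summed Fos genes to the summed Jun genes was 0.300, 0.245 and 0.411 in controls and 0.657, 0.328 and 0.618 in periodontitis. On this measure too, periodontitis 2 lay within the control range and the other periodontitis libraries above it.

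**Figure D2:**
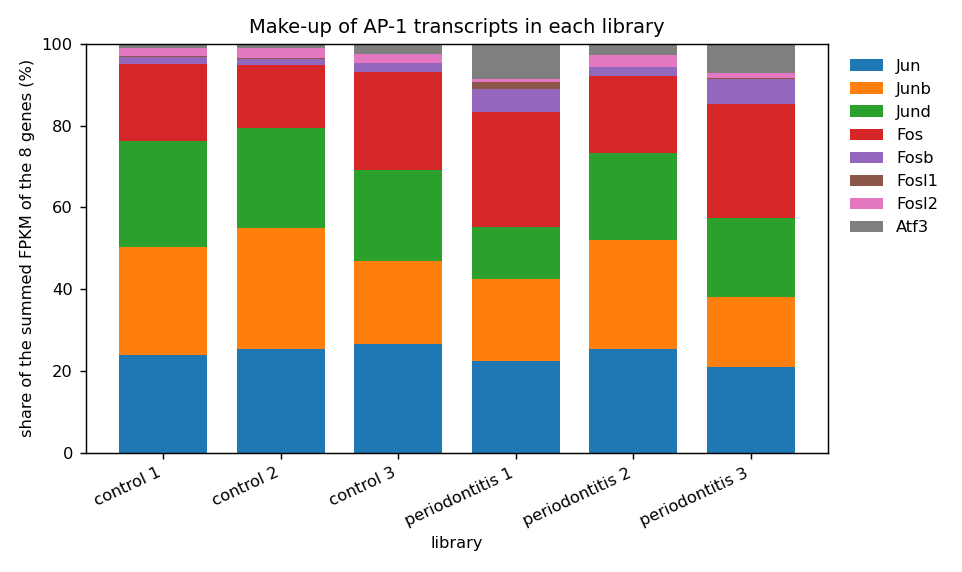
Share of each gene in the summed FPKM of the 8 AP-1 genes, in percent, for each library (stacked bars). Fos, Fosb and Atf3 take larger shares in periodontitis 1 and 3, where the Jun genes make up 55.3% and 57.4%, while the controls have 69.2% to 79.4% and periodontitis 2 has 73.4%.

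The median log2 difference over the 8 genes was 1.09, against -0.03 over all tested genes. It was 0.47 without periodontitis 1 and 1.65 without periodontitis 2. The 8 differences kept a positive sign with each library left out. With periodontitis 2 left out, 7 of the 8 genes, all but Fosl2, had groups that did not overlap, all upwards. This restates that periodontitis 1 and 3 were above all controls for 7 of the 8 genes. Groups did not overlap in 3.3% of all tested genes upwards and in 17.9% in either direction. With control 3 left out there were 6 such genes, all but Fosl1 and Jund (5.17% of all tested genes upwards, 12.3% in either direction). Without control 1 there was 1, Fosl1 (3.68% of all tested genes upwards, 9.53% in either direction). Without each of the other 3 libraries there were 0. Fosl1 itself was not among the tested genes. Without control 1, its nearest values were 0.441 FPKM in periodontitis 2 and 0.342 FPKM in control 2. Without periodontitis 2, they were 0.651 FPKM in periodontitis 3 and 0.591 FPKM in control 1.

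**Figure D3:**
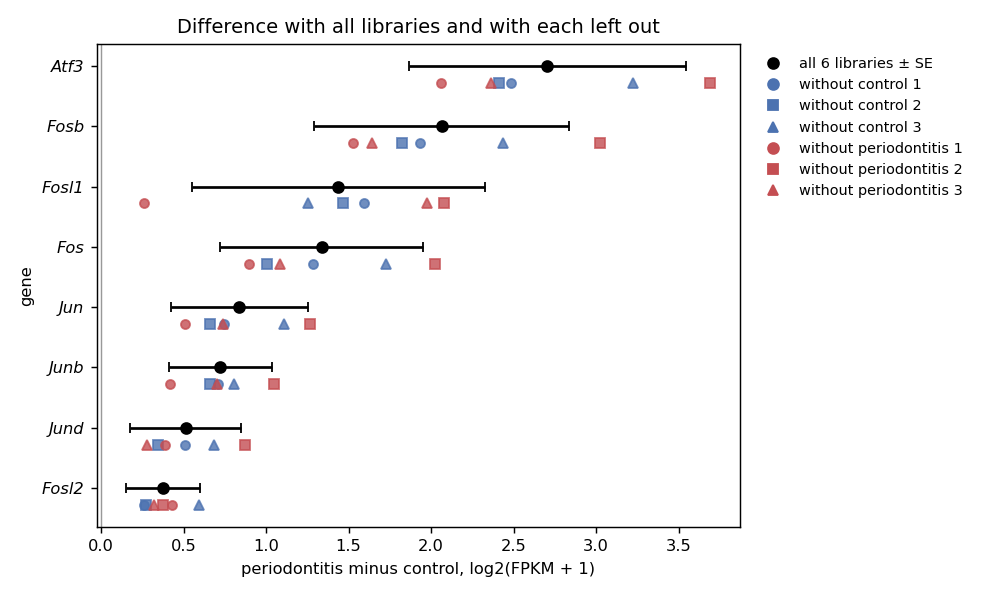
Difference of the group means of log2(FPKM + 1), periodontitis less control, for each AP-1 gene, with all 6 libraries (black, with the limma SE) and with each library left out (coloured). All points are above 0, and for all genes but Fosl2 the highest is without periodontitis 2, up to 3.69 for Atf3.

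The other genes of the pathway were tested as non-members, from lists chosen with earlier results of these data known. Other factors of the basic leucine zipper class, such as the Maf, Batf, Creb, Atf and C/EBP proteins, had a median log2 difference of 0.01. Of 27 tested, 14 had a higher and 13 a lower mean, 0 passed the adjusted threshold and 1 had an unadjusted p under 0.05 (0.38% of all tested genes did so upwards). That gene was Cebpd, an acute phase factor, with 13.8, 10.8 and 15.6 FPKM in controls and 27.6, 17.9 and 29.5 FPKM in periodontitis. All 3 periodontitis libraries were above all controls (log2 difference 0.84 ± 0.24, SE, limma adjusted p = 1.0). Groups did not overlap for 2 of the 27, Cebpd and Atf2, where 5.56% of all tested genes had such groups in either direction. Atf2, which pairs with Jun, had controls reaching from 9.35 to 11.1 FPKM and periodontitis libraries from 11.4 to 12.1 FPKM. It was named after its values were seen.

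Jdp2, a repressor that pairs with Jun, had 13.6, 11.9 and 17.3 FPKM in controls and 4.82, 10.6 and 13.6 FPKM in periodontitis. It was lowest in periodontitis 1, where Fos was highest (log2 difference -0.60, limma adjusted p = 1.0). Batf3, which pairs with Jun proteins in immune cells, was lowest there as well, at 0.553 FPKM against 3.11 to 6.61 FPKM in controls. Ddit3, the stress factor CHOP, had a log2 difference of 0.31 with overlapping groups.

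The upstream list holds MAP kinases, their activating kinases, the serum response factor Srf and its partners, and Jun-regulating proteins. Of its 32 tested genes, 10 had a higher and 22 a lower mean, where 42.6% of all tested genes had a higher mean. None passed the adjusted threshold in limma, 0 had an unadjusted p under 0.05, and the median of -0.04 was near that of all genes. The smallest p values belonged to Rps6ka2 (log2 difference -0.52), a kinase downstream of ERK, the ternary complex factor Elk3 (-0.33), the Srf coactivator Mkl1 (-0.31) and the ERK kinase Map2k1 (-0.18). Srf itself had a log2 difference of 0.12 with overlapping groups. Map2k7, which activates the Jun kinases, was the 1 gene of the 32 with groups that did not overlap, where 5.56% of all tested genes had such groups, its controls reaching from 8.07 to 10.57 FPKM and its periodontitis libraries from 10.64 to 11.4 FPKM. Srf and Map2k7 were named after their values were seen.

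Genes known as targets of AP-1 had a median log2 difference of 0.12, which was -0.04 without periodontitis 1 and 0.36 without periodontitis 3. Of 20 tested, 14 had a higher mean, and 0 passed the adjusted threshold or had an unadjusted p under 0.05 in limma. Groups overlapped in all 20. Hbegf, an EGF receptor ligand, had 5.68, 4.97 and 6.57 FPKM in controls and 29.3, 12.3 and 5.22 FPKM in periodontitis. The ligand Areg had 13.9, 5.72 and 1.80 FPKM in periodontitis while controls had 1.21 to 4.22 FPKM. Ptgs2, the inducible cyclooxygenase, had 6.04, 1.95 and 0.757 FPKM in periodontitis while controls had 0.933 to 1.70 FPKM. These 3 targets were above all controls in periodontitis 1 and 2 and within or below the control range in periodontitis 3. Fos, Jun and Atf3 were instead above all controls in periodontitis 1 and 3 and within the control range in periodontitis 2. Odc1, the polyamine enzyme, was above all controls in periodontitis 1 and 3 (47.3 and 37.9 FPKM, against 27.2 to 35.2 FPKM).

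**Figure D4:**
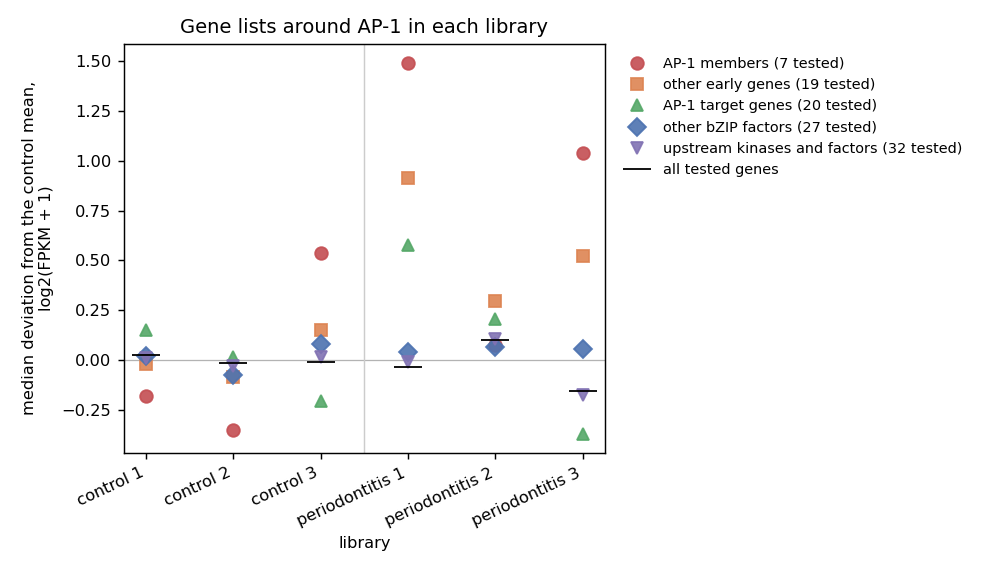
Median deviation from the control mean, on the log2(FPKM + 1) scale, of the tested AP-1 genes and 4 related gene lists in each library, with the median of all tested genes as a bar. The AP-1 genes are highest in periodontitis 1 (1.49) and 3 (1.04). The target genes are highest in periodontitis 1 (0.58), with 0.21 in periodontitis 2 and -0.37 in periodontitis 3. The other bZIP factors and upstream genes stay between -0.18 and 0.10.

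Early genes outside the family had a median log2 difference of 0.46 over 19 tested genes and of 0.23 over all 23 with no filter. Of the 19, 16 were higher in the mean and 0 passed the adjusted threshold in limma. An unadjusted p under 0.05 was found for 7 upwards (0.38% of all tested genes) and for 1 downwards, the matrix gene Ctgf (log2 difference -0.40), named after its values were seen. Groups did not overlap for 7 higher genes and for Ctgf (5.56% of all tested genes in either direction). Among the higher ones, Egr1 and Cyr61 were at 44.5 and 23.6 FPKM in periodontitis 2 against control maxima of 27.5 and 22.5 FPKM.

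Among 2060 tested genes outside the family with an SD of at least 0.5 on the log2 scale, the 5 whose profile over the 6 libraries was most like that of Fos were Btg2 (Pearson r = 0.97), Klf6 (0.97), Rhob (0.97), Gadd45g (0.96) and Cyr61 (0.94). For Atf3 they were Rhob (0.99), Cyr61 (0.99), Btg2 (0.98), Klf6 (0.97) and Zfp36 (0.97). They were picked as the highest of many, over 6 points that share their libraries, so no p is given. Rhob, a small GTPase, had 33.8, 32.8 and 40.7 FPKM in controls and 78.6, 39.9 and 66.7 FPKM in periodontitis. Within the family, Fos was most like Jun (r = 0.99), Fosb (0.98) and Atf3 (0.98) and least like Fosl1 (0.66) and Fosl2 (0.65).

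Other properties of the libraries are given here beside these results. Periodontitis 1 and 3 had 218 and 174 genes listed at 0, while the controls had 72 to 124 and periodontitis 2 had 71. Of 11 tested entries for heat shock genes, 9 had a higher mean (42.6% of all tested genes), with a median log2 difference of 0.18. In limma, 2 of these 9 had an unadjusted p under 0.05 (0.38% of all tested genes), and 0 of the 11 passed the adjusted threshold. By library, the median deviation of the 11 entries from the control mean was 0.72, 0.01 and -0.14 in periodontitis 1 to 3. In controls it was -0.19 to 0.19, so only periodontitis 1 was above the control range. Among them Hspa1a and Hspa1b, near-identical copies whose reads may be divided, had 285 and 308 FPKM in periodontitis 1, 109 and 117 in periodontitis 2 and 156 and 155 in periodontitis 3, against at most 77.2 FPKM in controls. Summed markers of cornified epithelium (9 of 12 analysed) were 1544 to 2317 FPKM in controls, and 4522, 2578 and 879 FPKM in periodontitis 1 to 3. The gland sum (6 of 8 markers) went the other way, at 95556, 143650 and 268192 FPKM against 159987 to 185470 FPKM in controls. Nearly all of it was Lipf, Lcn1, Vegp2 and Bpifb1, each lowest in periodontitis 1 and highest in periodontitis 3. Lpo and Bpifa2 did not follow this sum. Lpo was highest in periodontitis 2 (15.0 FPKM), and all its controls (1.74 to 2.96 FPKM) were below periodontitis 3 (3.14 FPKM). Bpifa2 was lowest in periodontitis 2 (6.40 FPKM), while its controls spanned 11.5 to 54.2 FPKM. Muscle markers (10 of 12) were 972, 2323 and 3076 FPKM against 3414 to 4788 FPKM in controls, and red cell markers (2 of 7) 276, 234 and 602 FPKM against 131 to 174 FPKM. Fibroblast markers (7 of 8) were 610, 1289 and 1048 FPKM against 1429 to 1509 FPKM. The genes listed for neutrophils (4 of 8) summed to 276, 534 and 85.4 FPKM against 122 to 163 FPKM. The excess in periodontitis 2 lay in S100a8 and S100a9, while Cxcr2 was within the control range there. The fourth gene, Ly6g6e, had the library order of the cornified marker Ivl and is not read as a neutrophil marker, although the sums include it. Macrophage markers (8 of 8) were 55.2, 104 and 81.4 FPKM against 91.5 to 133 FPKM. Taste cell markers (8 of 8) were 141, 190 and 201 FPKM against 184 to 208 FPKM, so the labelled tissue's markers were present in all 6 libraries. Most of each sum was Krt8, with 83.6, 122 and 159 FPKM against 124 to 154 FPKM in controls. Car4, like Krt8, was lowest in periodontitis 1 and highest in periodontitis 3. The remaining taste markers did not follow Krt8. Trpm5, Gnat3, Tas1r2, Entpd2 and Snap25 were lowest in periodontitis 3, and Plcb2 was lowest in control 1. None of the markers analysed in these lists was at 0 in any library. The part of these measures in the AP-1 values was not tested, and in bulk tissue a change in the number of cells and a change in RNA per cell cannot be told apart.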

How the data were processed

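The 3 control and 3 chronic periodontitis RNA-seq libraries from rats were grouped by their disease label and numbered as in their titles. The deposited values are FPKM per gene, made by the authors from 1 library each, per the file headers. The submitters' processing notes name FastQC, cutadapt, HISAT2 and StringTie, with versions not given in the sources used here, and the mouse build mm10, although identifiers and chromosomes are those of rat. Positions were copied from the tables, and neither the rat build nor strand use nor read counts are stated there. Low values shared no common step between libraries (at most 2 of 328 low genes had the same ratio to 4 decimals), so no depth, interval or floor was computed. FPKM is a share of each library's total, so abundant gland transcripts lower all other values.

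From FPKM, log2(FPKM + 1) was computed. The 13154 genes that reached 1 FPKM in 3 or more libraries (1251 did not) were fitted with limma 3.58.1 (R 4.3.3) with a mean-variance trend and group as the only term, in a two-sided test, its p-values adjusted by Benjamini-Hochberg over all of these genes at a threshold of 0.05. The script was tested on simulated data. The members and lists were chosen with earlier results of these data known, so no p is given for a member. Named genes were the 8 members, the 4 tested genes with the smallest p in the partner, upstream and target lists, the 2 smallest in the early and heat shock lists, and the 5 genes most like Fos and Atf3. Further genes are marked as named after their values were seen. Alternatives were a replicate block, each library left out, other filters, a pseudocount of 0.1, quantile normalization, rescaling without 4 gland genes and no trend. The count of genes without overlap was followed over alternatives added after the data were seen. Upstream sequences were from RefSeq (GRCr8).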

Additional observations from a re-analysis of the deposited data

How the results depend on the processing

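The number of genes past the adjusted threshold in limma was 0. Adding the replicate block gave 3, of which 1 was higher and none was an AP-1 gene. It was 0 to 1 with each library left out. The replicate numbers were not taken as a pairing, because the deviations of same-numbered libraries had correlations of 0.09, 0.03 and 0.46. Each library numbered 3 was most like its own number, and those numbered 1 and 2 were not. The other filters, pseudocount, scalings and fit without the trend gave 0 genes. The number of AP-1 genes whose groups did not overlap, 0 with all libraries, was 0 to 7 with each library left out and 0 with quantile normalization or gland rescaling, settings added after the data were seen. The median difference of the AP-1 genes ranged from 0.47 to 1.65 with each library left out, and from 0.84 (among the 7 genes averaging 5 FPKM or more) to 1.12 (gland rescaling) otherwise. In these settings 0 of 79 member values changed sign. Fosl1 had 0.26 without periodontitis 1 and 2.61 with a pseudocount of 0.1, against 1.44. Leaving out the filter, adding the block or dropping the trend does not enter a member's difference, so no value was computed for these. The partner list's median was -0.01 without control 2 and -0.06 without periodontitis 2, and the upstream list's was -0.14 without periodontitis 2 and 0.04 without periodontitis 3. The cause was not tested. Depth is unknown, so its limit on Fosl1 could not be given.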

Other observations

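Of the partner and target lists, 3 stress-induced genes are given here by library. They were picked after their values were seen, and none passed in limma (adjusted p = 1.0 each). Atf4 had 163, 155 and 204 FPKM in controls 1 to 3 and 199, 172 and 279 FPKM in periodontitis 1 to 3. Atf5, a relative of Atf4, had 81.0, 74.6 and 134 FPKM in controls and 45.0, 72.4 and 223 FPKM in periodontitis. The secreted stress factor Gdf15 had 2.76, 3.97 and 8.71 FPKM in controls and 6.95, 2.48 and 19.9 FPKM in periodontitis. These 3 were highest in periodontitis 3, and control 3 was the highest control for each. Ppp1r15a, another stress-induced gene, from the early list, was highest in periodontitis 1 instead, at 65.4 FPKM against 34.8 FPKM in periodontitis 3.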
